A study of Mus musculus with 2 samples.

Results

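The 9 genes described here encode peptides and receptors of sensory neurons that are studied in itch: the peptides Nppb, Sst, Nts, Nmb, Grp and Npy, and the receptors Npy1r, Npy2r and Sstr2. They were matched by gene symbol among the 31253 genes of the deposited matrices, and all 9 were found. The data are 2 single-cell RNA libraries of dissociated lumbar dorsal root ganglia (L4-5) from wild-type mice aged 8 weeks, both from the group treated with acetone, ether and water, a treatment that dries the skin and is used as an itch model. Neither library is from an untreated animal, so no effect of the treatment can be read from them. Nothing in the labels tells whether each replicate is its own animal. The p-values rest on the spread between these libraries that is left after a term for library, and that spread may be technical. After removal of low-quality barcodes and predicted doublets, 7774 cells of replicate 1 and 10270 cells of replicate 2 remained. The labels give the cell type as neuron, but cells named neurons by markers made up 1932 of the 18044 cells, or 10.7%. The rest carried markers of glia, vessels, fibroblasts and blood cells or stayed unnamed. Unnamed clusters led by Calml4 and by Serpinb1a scored best as neuron (0.806 and 0.704), with low medians of 1123 and 1184 UMIs. They held 1097 and 132 cells of replicate 1 and 303 and 1606 of replicate 2, so the 10.7% leaves out neuron-like cells of low depth.

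Dorsal root ganglion neurons that respond to pruritogens pass the itch signal to the spinal cord partly through released peptides. Nppb encodes natriuretic polypeptide b, which acts on Npr1 in the dorsal horn. Sst encodes somatostatin, which acts through inhibitory receptors that include Sstr2, and Nts encodes neurotensin. Nmb and Grp encode the bombesin-like peptides neuromedin B and gastrin-releasing peptide. Npy encodes neuropeptide Y, which is known to appear in sensory neurons after nerve injury, and Npy1r and Npy2r encode inhibitory receptors for it.

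Neurons were assigned to 8 classes by fixed marker genes, none of which is one of the 9 genes. NP1 is the Mrgprd class of non-peptidergic neurons, NP2 the Mrgpra3 class and NP3 the class marked by Il31ra, Osmr, Cysltr2, Htr1f and Jak1. TH is the class of tyrosine hydroxylase neurons, PEP-C and PEP-A are peptidergic classes marked by Tac1 and by Kit among others, TRPM8 is the cold-sensing class, and NF is the class of myelinated neurofilament neurons. The classes hold 1541 of the 1932 neurons, from 52 cells in NP2 to 533 in PEP-C, and 72 in NP3. Of the 38 class markers, 34 were highest in their own class in both libraries. The same markers assigned the cells, so this is no independent check of the classes. Levels are given as UMIs per 10000, which is the sum of a gene's UMIs over the cells of a class divided by the sum of all their UMIs. Satellite glia, which surround the neuron bodies, served as background for free RNA in the droplets.

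The starts of 8 of the 9 genes were found in the RefSeq promoter table (GRCm38.p6). The 250 bases before the start are shown for the 4 genes that were highest in NP3, since they are high in the same cells, and for Sstr2, the receptor of one of these peptides. Capitals mark matches, on either strand, to the cyclic AMP response element TGACGTCA, the AP-1 motif TGANTCA or the TATA motif TATAAA, searched in 300 bases from 250 before to 50 after the start.
Nppb, chr4:147985650-147985899, plus strand: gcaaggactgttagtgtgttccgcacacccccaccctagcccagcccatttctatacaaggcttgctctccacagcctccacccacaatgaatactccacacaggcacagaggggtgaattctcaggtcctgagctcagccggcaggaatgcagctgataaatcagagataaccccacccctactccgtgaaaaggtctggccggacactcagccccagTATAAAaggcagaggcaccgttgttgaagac
Sst, chr16:23890845-23891094, minus strand: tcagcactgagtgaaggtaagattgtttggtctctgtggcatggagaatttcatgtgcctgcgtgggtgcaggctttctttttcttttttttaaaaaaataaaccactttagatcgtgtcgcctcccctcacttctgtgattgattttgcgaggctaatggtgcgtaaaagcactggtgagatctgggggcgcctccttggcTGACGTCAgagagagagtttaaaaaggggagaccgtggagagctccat
Nts, chr10:102490419-102490668, minus strand: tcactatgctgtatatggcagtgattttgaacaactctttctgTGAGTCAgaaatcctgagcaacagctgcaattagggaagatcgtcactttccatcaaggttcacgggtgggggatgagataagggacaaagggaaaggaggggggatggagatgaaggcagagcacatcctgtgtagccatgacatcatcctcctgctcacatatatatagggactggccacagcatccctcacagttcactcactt
Npy2r, chr3:82548086-82548335, minus strand: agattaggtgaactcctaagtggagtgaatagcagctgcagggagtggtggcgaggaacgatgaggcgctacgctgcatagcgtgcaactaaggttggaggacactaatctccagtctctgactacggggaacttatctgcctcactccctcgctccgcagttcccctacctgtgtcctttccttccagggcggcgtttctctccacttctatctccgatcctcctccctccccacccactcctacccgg
Sstr2, chr11:113619077-113619326, plus strand: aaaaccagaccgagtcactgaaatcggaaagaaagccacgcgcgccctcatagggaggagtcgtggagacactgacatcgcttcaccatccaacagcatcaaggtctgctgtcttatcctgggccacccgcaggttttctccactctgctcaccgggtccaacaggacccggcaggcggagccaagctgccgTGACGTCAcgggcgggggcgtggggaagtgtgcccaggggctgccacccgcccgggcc
The 4 genes of the NP3 set have no motif of the 3 in common. Sst and Sstr2, a peptide and a receptor for it, each hold TGACGTCA, which starts 48 bases before the Sst start and 58 bases before the Sstr2 start. Nts and Npy1r each hold the AP-1 motif as TGAGTCA, which starts 207 bases before the Nts start and 231 before the Npy1r start. Of the 32851 windows in the table, 1.79% hold TGACGTCA, 7.81% hold TGANTCA and 13.6% hold TATAAA. A match of letters describes the sequence only.

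Nppb, Sst and Nts were concentrated in NP3. Nppb reached 16.2 and 26.2 UMIs per 10000 in NP3 of replicates 1 and 2 (21.2 ± 7.10, SD, n = 2 libraries). In the other neuron classes it lay between 0 and 0.282, and in satellite glia it was 0.0328 and 0.0411. NP3 held 97.7% of the 11011 Nppb UMIs found in the neuron classes. It was the only neuron class whose counting interval lay above that of satellite glia in both libraries. Outside the neurons, non-myelinating Schwann cells also lay above satellite glia in both libraries, and no named class exceeded 0.136 in a library. Against the average of the other classes the log2 difference was 9.81 ± 0.30 (SE; edgeR's quasi-likelihood test, Benjamini-Hochberg adjusted p = 3.85e-13).

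Sst measured 9.22 and 6.59 UMIs per 10000 in NP3 (7.90 ± 1.85, SD, n = 2 libraries). No Sst UMI was found in NP2 of either library, and satellite glia had 0.0129 and 0.00771. The difference from the other classes passed the test (adjusted p = 3.84e-13, edgeR's quasi-likelihood test), and NP3 held 98.4% of the 4536 Sst UMIs of the neuron classes. Against NP2 the level was at least 1508-fold higher, with NP2 set at a floor of 3 counts over both libraries.

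Nts measured 5.84 and 9.28 UMIs per 10000 in NP3 (7.56 ± 2.43, SD, n = 2 libraries), with a log2 difference from the other classes of 7.55 ± 0.31 (SE; adjusted p = 1.26e-11, edgeR's quasi-likelihood test). NP3 held 91.3% of its UMIs in the neuron classes, a smaller share than for Nppb and Sst. Of the 6282 Nts UMIs in all cells, 67.2% lay in the neuron classes. Both Schwann cell classes and mural cells lay above satellite glia in both libraries. The remainder within the neuron classes was uneven between libraries. Nts in NF was 0.0084 in replicate 1 and 0.330 in replicate 2, from 99 UMIs in all. In TRPM8 it was 0.266 in replicate 1 and 0.0220 in replicate 2. The TRPM8 value of replicate 1 came from 61 UMIs in 4 of 39 cells, of which 1 cell gave 56. The libraries also differed in order within NP3, where replicate 1 was the higher for Sst and replicate 2 for Nppb and Nts.

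The receptor Npy2r shared this class. It measured 4.15 and 3.57 UMIs per 10000 in NP3 (3.86 ± 0.407, SD, n = 2 libraries), the closest pair of libraries among the 4 genes of the set. PEP-A followed with 0.399 and 0.296 and PEP-C with 0.102 and 0.0679, and these 3 classes stood in the same order in both libraries, all above satellite glia (0.00745 and 0.0141). TRPM8 had no Npy2r UMI in either library. Npy2r in NP3 was 10.8-fold its level in PEP-A (95% counting interval 9.29 to 12.6, counting error only) and differed from the other classes by the test (adjusted p = 7.46e-14, edgeR's quasi-likelihood test).

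Of the 9 genes, 7 had enough counts to be tested, since Grp and Npy were removed by the filter on low counts. In NP3 against the other neuron classes, 4 of the 7 were higher (Nppb, Sst, Nts and Npy2r) and 1 was lower (Npy1r), where 17.9% of the 12759 genes tested were called higher and 16.9% lower. Npy1r was at 0.00293 and 0.0449 UMIs per 10000 in NP3, a log2 difference of -2.78 ± 0.50 (SE; adjusted p = 0.000352, edgeR's quasi-likelihood test). Of the neuropeptide Y receptors, NP3 thus held Npy2r and little Npy1r.

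NP3 and NP2 are both associated with itch, and the comparison between them separated the peptides. Nppb in NP2 was 0.0135 and 0.0225 UMIs per 10000, from 9 UMIs in all, and the log2 difference of NP3 from NP2 was 10.02 ± 0.75 (SE; adjusted p = 7.6e-08, edgeR's quasi-likelihood test). For Nts the log2 difference was 7.20 ± 0.70 (SE; adjusted p = 1.17e-06, same test). Npy2r had 1 UMI in NP2 against 2132 in NP3, a ratio of levels of 2160 (95% counting interval 387 to 85350). In this comparison 4 of the 7 tested genes were higher in NP3 and Nmb was lower, where 11.2% of all genes were called higher and 12.7% lower.

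**Figure D1:**
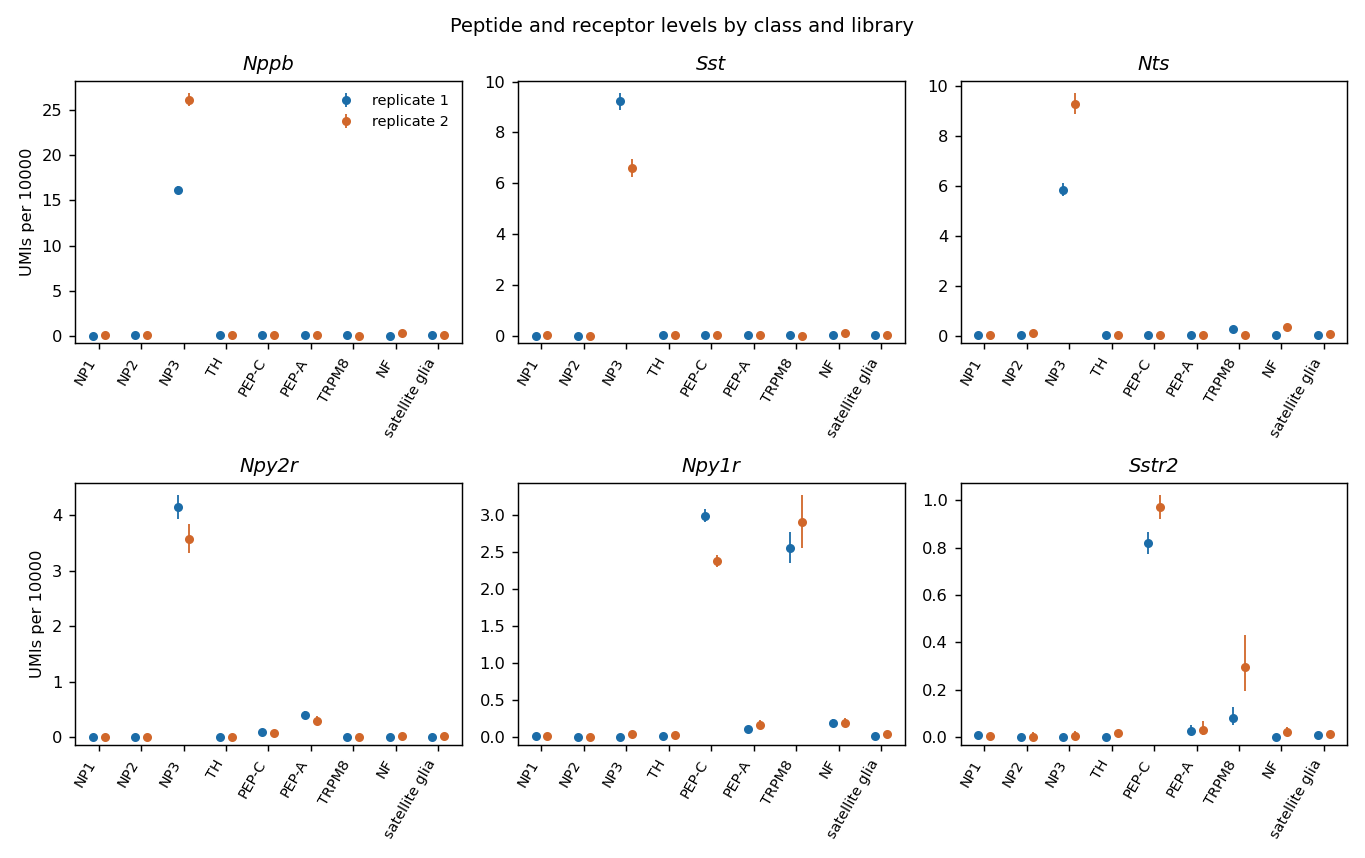
Levels of 6 of the 9 genes in UMIs per 10000 (vertical axes, linear, each with its own range) in the 8 neuron classes and satellite glia. Points are the 2 libraries and bars are exact 95% Poisson intervals, which cover counting error only. Nppb, Sst, Nts and Npy2r stand out in NP3, Npy1r in PEP-C and TRPM8, and Sstr2 in PEP-C.

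The NP3 genes were found in the same cells. Nppb, Sst, Nts, Npy2r and Nmb were all detected in 31 of 33 NP3 cells of replicate 1 and in 31 of 39 of replicate 2. The median cell held 16.0 and 24.1 Nppb UMIs per 10000 in the 2 libraries, 8.77 and 4.004 for Sst, 6.28 and 7.57 for Nts, and 3.92 and 3.32 for Npy2r. Cells nevertheless ranged widely, from 0 to 28.1 for Nppb and from 0 to 28.7 for Sst in replicate 1. Not all cells chosen by the NP3 markers lay in the NP3 cluster: 1 of replicate 1 lay in the NP2 cluster, and of replicate 2 3 lay in NP1 clusters and 5 in unnamed ones, and depth ran from 20691 to 164778 UMIs in replicate 1 and from 2190 to 91939 in replicate 2.

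Correlations across the cells of a library, given as descriptions, depended on these few cells. Log-scaled levels of Nppb and Npy2r had Pearson's r of 0.664 and 0.787 over all NP3 cells, but 0.0278 and -0.113 over the 32 and 31 cells in the NP3 cluster. For Nppb and Sst r was 0.789 and 0.625 over all NP3 cells and 0.585 and 0.389 in the NP3 cluster. Nppb and Nmb gave 0.0298 and 0.314, and 0.102 and 0.449 in the NP3 cluster. In the NP3 cluster Nppb and Npy2r were detected together in all 32 and all 31 cells.

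These shares depend on depth, because the median NP3 cell held 109626 UMIs in replicate 1 and 60301 in replicate 2, against 7698 and 7188 in satellite glia. With every cell thinned to 2000 UMIs, Nppb was still found in 30 of 33 (90.9%) and 35 of 39 (89.7%) NP3 cells, with exact 95% binomial intervals of 75.7% to 98.1% and 75.8% to 97.1%. Thinning left out 90 and 74 satellite glia and no NP3 cell. In satellite glia thinned alike, 0.620% and 1.10% of cells held a Nppb UMI. Sst was found in 66.7% and 51.3% of thinned NP3 cells, Nts in 63.6% and 64.1%, and Npy2r in 51.5% and 41.0%, and without thinning Sst was in 32 of 33 and 32 of 39, Nts in 32 of 33 and 35 of 39, and Npy2r in 33 of 33 and 36 of 39. In thinned satellite glia Sst was in 0.165% and 0.143% of cells, Nts in 0.620% and 0.715%, and Npy2r in 0.0413% and 0.286%.

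**Figure D2:**
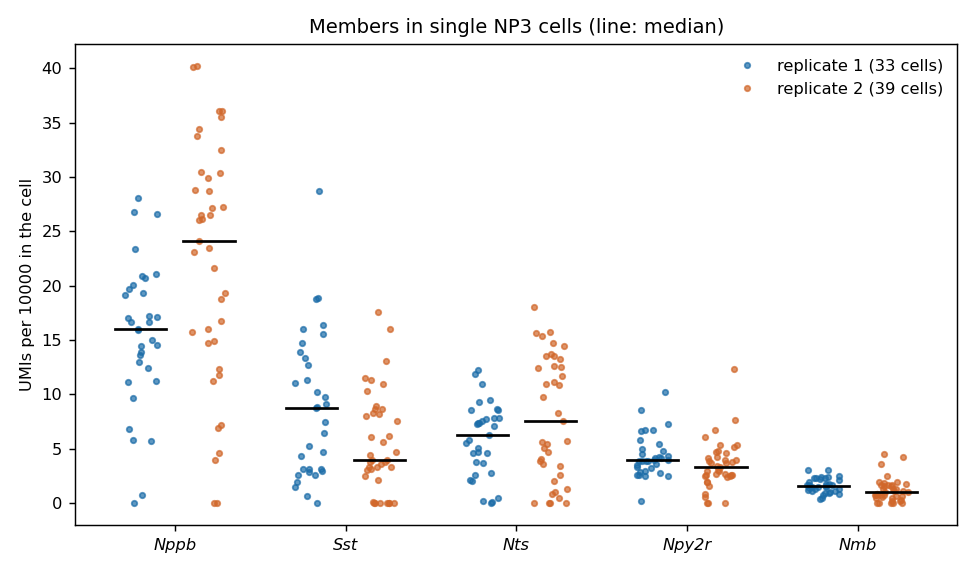
Each point is 1 NP3 cell, placed by its UMIs per 10000 (vertical axis) for 5 of the genes, with replicate 1 (33 cells) left and replicate 2 (39 cells) right of each tick, and a line at the median. Most cells hold all 5 transcripts, and the Nppb medians of 16.0 and 24.1 are the highest of the 5.

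Nts also appeared in a small set of neurons outside the 8 classes. A cluster of 12 neurons, 4 from replicate 1 and 8 from replicate 2, was led by Sprr1a, a gene known to be induced in neurons after axon injury, and stayed unnamed. All 12 cells held Nts, from 0.116 to 42.8 UMIs per 10000 with a median of 10.9, and the summed level was 9.41 and 12.9 in the 2 libraries, against 0.332 and 0.420 in all other neurons. Only 1 of the 12 held Nppb, and none held Sst. The injury-response transcription factor gene Atf3 was found in all 12, at 9.93 and 7.90 UMIs per 10000 against 0.523 and 1.68 in all other neurons. This set was singled out after its values were seen, so its levels are a description with no test.

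Nmb had the broadest pattern of the peptides. In NP1 it measured 4.56 and 3.19 UMIs per 10000 (3.88 ± 0.968, SD, n = 2 libraries) and in PEP-A 4.26 and 4.67 (4.47 ± 0.294), and the order of these classes reversed between the libraries. NP2 followed with 3.46 and 2.04, PEP-C with 2.64 and 2.17 and NP3 with 1.68 and 1.17. NP2 and PEP-C also changed places between the libraries. NP1 was not tested against PEP-A, nor NP2 against PEP-C. All 5 of these classes lay above satellite glia, at 0.434 and 0.409, in both libraries. So did 4 classes outside the neurons, namely myelinating and non-myelinating Schwann cells, mural cells and B cells. Among the named classes outside the neurons the highest level in a library was 1.18, so NP3, with 1.17 in replicate 2, did not clearly exceed all of them. Some unnamed clusters held more. Nmb was 2.97 and 1.76 in the cluster led by Calml4, 3.65 and 2.54 in that led by Serpinb1a, and 1.32 and 1.13 in that led by Aif1.

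The other 3 classes held little Nmb. TH measured 0.349 and 0.305 UMIs per 10000, NF 0.255 and 0.821, and TRPM8 0.188 and 0.0220, so that TH and TRPM8 lay below satellite glia in both libraries. Against the other neuron classes the log2 difference in Nmb was 2.18 ± 0.23 for NP1 (SE; adjusted p = 1.06e-06, edgeR's quasi-likelihood test) and 2.19 ± 0.24 for PEP-A (adjusted p = 2.58e-06). NP2 was higher by 1.55 ± 0.25 (adjusted p = 0.000202), and TRPM8 fell below the others, at -3.79 ± 0.46 (adjusted p = 9.64e-06). In NP1 1 of the 7 tested genes, Nmb, was higher and 2 were lower, Nppb and Npy1r, where 24.3% of all genes were called higher and 19.1% lower. The Nppb call in NP1 (adjusted p = 0.0347) was lost with DESeq2 (adjusted p = 0.106), without the library term (0.118), with classes taken from clusters (0.0728) and where gate and cluster names agree (0.0663), and the log2 difference was -0.60 without replicate 1 and -2.07 without replicate 2. In NP2, where 18% of genes were called higher and 14.6% lower, Nmb was again the 1 gene called higher, with Npy1r and Sstr2 lower (for Sstr2 adjusted p = 0.0455, but 0.091 without the library term, 0.0815 with classes taken from clusters and 0.0799 with a stricter class margin), and in TRPM8, where 14.2% were called lower, Nmb and Npy2r were the 2 called lower.

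PEP-C was higher in Nmb than the average of the other classes by 1.13 ± 0.25 (SE; adjusted p = 0.00246, edgeR's quasi-likelihood test), a call lost with DESeq2 (adjusted p = 0.0766) and with a stricter class margin (0.0711). NP3 did not pass the test (log2 difference 0.27 ± 0.28, SE; adjusted p = 0.5). Directly against NP2, NP3 had less Nmb (log2 difference -1.11 ± 0.37, SE; adjusted p = 0.0375), and that call was lost with DESeq2 (adjusted p = 0.239) and without the library term (0.106).

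**Figure D3:**
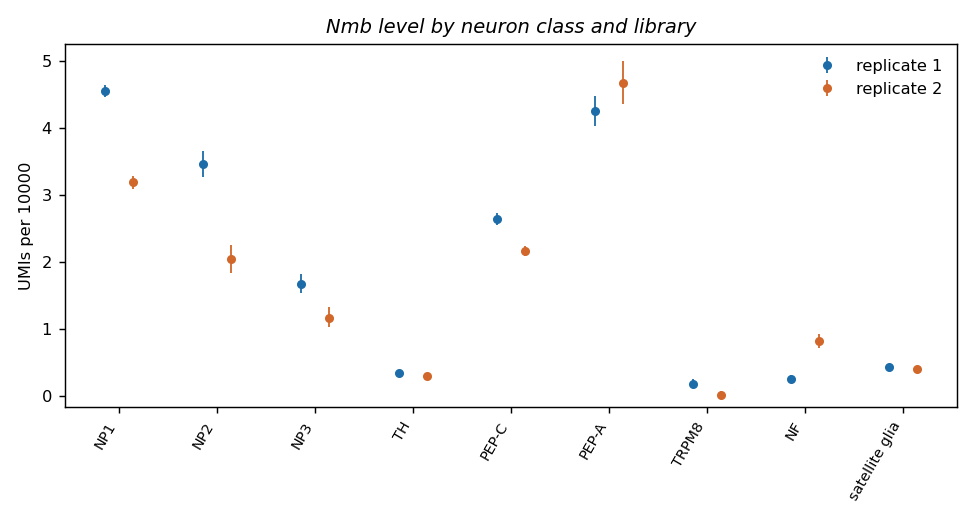
Nmb in UMIs per 10000 (vertical axis) in the 8 neuron classes and satellite glia, with 1 point a library and exact 95% Poisson intervals. NP1, NP2, NP3, PEP-C and PEP-A sit above satellite glia in both libraries, and TH and TRPM8 sit below it.

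Npy1r marked a pair of classes. It measured 2.99 and 2.37 UMIs per 10000 in PEP-C (2.68 ± 0.437, SD, n = 2 libraries) and 2.56 and 2.89 in TRPM8 (2.73 ± 0.240), with the order of the classes reversed between libraries. NF (0.193 and 0.196) and PEP-A (0.112 and 0.163) were far lower, though above satellite glia (0.0154 and 0.0450). The PEP-A value came from few cells outside the PEP-A cluster: of its 38 Npy1r UMIs in replicate 1, 35 were in 5 cells of PEP-C clusters, and of its 28 in replicate 2, 16 were in 1 cell of the TRPM8 cluster and 11 in 4 cells of PEP-C clusters. The PEP-A cells in the PEP-A cluster held 3 Npy1r UMIs in 24 cells and none in 21 cells, which is 0.0104 UMIs per 10000 in replicate 1 and not above satellite glia. NP1, NP2, NP3 and TH lay between 0.00293 and 0.0449. The log2 difference from the other classes was 5.36 ± 0.15 for PEP-C (SE; adjusted p = 1.34e-12, edgeR's quasi-likelihood test) and 5.29 ± 0.17 for TRPM8 (adjusted p = 1.65e-12).

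Sstr2 was highest in PEP-C, which held 95.8% of its 2654 UMIs in the neuron classes. PEP-C is also the class with the most cells, which raises this share. It measured 0.818 and 0.970 UMIs per 10000 there (0.894 ± 0.108, SD, n = 2 libraries), against 0.00795 and 0.0148 in satellite glia. TRPM8 came next at 0.0830 and 0.297, where a single cell gave 52.6% of the UMIs in replicate 1 and another 48.1% in replicate 2. By level, PEP-C was 9.86-fold TRPM8 in replicate 1 and 3.27-fold in replicate 2. No Sstr2 UMI was found in NP2. NP3, the class that expressed its ligand Sst, held 1 Sstr2 UMI in all. The PEP-C difference passed the test (adjusted p = 1.04e-10, edgeR's quasi-likelihood test), as did that of TRPM8 (adjusted p = 0.000182).

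In PEP-C against the other neuron classes, 4 of the 7 tested genes were higher (Npy1r, Sstr2, Npy2r and Nmb) and 1 lower (Nts), where 18.5% of genes were called higher and 9.53% lower. The Nts call (log2 difference -2.52 ± 0.72, SE; adjusted p = 0.0147, edgeR's quasi-likelihood test) was lost without the library term (adjusted p = 0.0835) and in neurons whose gate and cluster names agree (adjusted p = 1). In TRPM8, 2 of the 7 were higher, Npy1r and Sstr2, where 15.9% of genes were called higher.

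PEP-C and PEP-A differed in all 3 receptors. Npy1r was higher in PEP-C by a log2 difference of 4.31 ± 0.27 (SE; adjusted p = 2.21e-08, edgeR's quasi-likelihood test) and Sstr2 by 4.92 ± 0.48 (adjusted p = 2.83e-06). Npy2r went the other way, at -2.10 ± 0.29 (SE; adjusted p = 7.86e-05, same test), although DESeq2 did not call it (adjusted p = 0.0961). Of the 7 tested genes 2 were higher and 1 lower in PEP-C, where 9.8% of all genes were called higher and 11.7% lower. Nmb did not pass (log2 difference -0.94 ± 0.35, SE; adjusted p = 0.0708).

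These tests set the log level of a class against the average of the log levels of the other classes, so 1 class with a very high level weighs little in them. In 4 of the calls of higher levels the class lay below the plain mean of the other classes, which the leading class raises. They were Npy2r in PEP-A (mean level 0.348 against 0.568 UMIs per 10000) and in PEP-C (0.0849 against 0.606), and Npy1r (0.194 against 0.802) and Sst (0.0598 against 1.13) in NF.

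In PEP-A against the other classes, Nmb and Npy2r were higher and Nts lower, 2 and 1 of the 7, where 18.5% of genes were called higher and 10% lower. The Npy2r difference (adjusted p = 3.64e-08, edgeR's quasi-likelihood test) held in all alternatives that gave a test, while that of Nts (adjusted p = 0.0479) was lost in 3 of them. In TH none of the 7 was higher and 4 were lower (Nmb, Npy1r, Nppb and Nts), where 20.2% of genes were called higher and 16.5% lower. Of these 4 calls in TH, only that of Nmb held in every alternative that gave a test. In NF, Npy1r and Sst were called higher and Nmb lower, where 24.9% of genes were called higher and 18.3% lower. The Npy1r call (log2 difference 0.99 ± 0.26, SE; adjusted p = 0.00578, edgeR's quasi-likelihood test) was lost with classes taken from clusters (adjusted p = 0.193). The Sst call in NF rests on replicate 2, with 0.117 UMIs per 10000 against 0.0028 in replicate 1, and its direction turns without that library (log2 difference -1.24).

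Npy1r and Sstr2 were often found in the same PEP-C cells. The 2 receptors were found together in 102 of 169 PEP-C cells of replicate 1 and 159 of 364 of replicate 2, while 0 Sstr2 cells of replicate 1 and 7 of replicate 2 lacked Npy1r. Depth and clusters differed between these libraries: the median PEP-C cell held 85379 and 38567 UMIs, 161 of 169 and 223 of 364 cells lay in clusters named PEP-C, and 116 cells of replicate 2 against 2 of replicate 1 lay in unnamed clusters, with a median of 7956 UMIs in replicate 2. Unnamed clusters nearly absent from replicate 1 were led by genes of mural cells, glia or neutrophils. Within clusters named PEP-C both receptors were found in 100 of 161 and 140 of 223 cells, and 0 Sstr2 cells of either library lacked Npy1r. Log-scaled levels had r of 0.668 and 0.636 across all PEP-C cells and 0.668 and 0.677 in clusters named PEP-C, as a description. By clusters made without any of the 9 genes, those led by Avpr1a and Dcdc2a were high in both, with 4.87 and 4.44 and 5.12 and 4.08 Npy1r UMIs per 10000 and 1.91 and 1.75 and 1.799 and 2.002 for Sstr2. The cluster led by Ccl21a and Stum also held both, with 3.33 and 2.93 for Npy1r and 0.978 and 1.69 for Sstr2. That led by Cldn9 had 1.38 and 1.16 for Npy1r and only 0.182 and 0.176 for Sstr2. The cluster led by Mymk was high in Npy1r alone, with 3.63 and 3.69, and had 0.315 and 0.219 for Sstr2. The cluster led by Penk and Calb1 had 0.396 and 0.157 for Npy1r and no Sstr2 UMI.

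**Figure D4:**
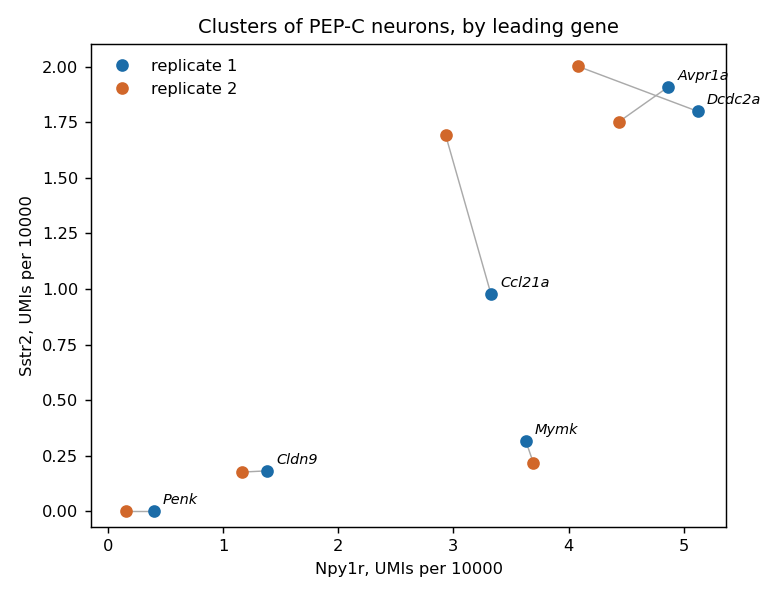
Clusters of PEP-C neurons with at least 5 cells in each library, placed by Npy1r (horizontal axis) and Sstr2 (vertical axis), both in UMIs per 10000, and named by the leading gene of each cluster. Lines join the 2 libraries of a cluster. The Avpr1a and Dcdc2a clusters are high in both receptors, the Mymk cluster in Npy1r only, and the Penk cluster is low in both. The Ccl21a cluster also holds both, and the Cldn9 cluster holds less of each than the Ccl21a cluster.

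Outside the neurons, Npy1r was also high in mural cells, the contractile cells of the vessel wall. It measured 2.82 and 1.44 UMIs per 10000 there, beside 0.666 and 0.238 in fibroblasts. The fibroblast value came from the smaller of their 2 clusters, with 1.66 and 0.574 from 113 and 55 UMIs, whose next best name was perineurial (marker score 0.603 against 0.682 for fibroblast). The larger fibroblast cluster measured 0.0703 and 0.0607. The median mural cell held 4079 and 3698 UMIs, against 85379 and 38567 for PEP-C, and thinning left out 26 and 21 mural cells. With cells thinned to 2000 UMIs, 43.4% and 22.1% of mural cells held a Npy1r UMI, against 37.9% and 26.6% of PEP-C neurons and 0.454% and 1.00% of satellite glia. The PEP-C shares were 80.6% and 64.2% at 10000 UMIs, a depth at which mural cells were not thinned. The mean of the neuron classes was higher in Npy1r than satellite glia by a log2 difference of 1.55 ± 0.37 (SE; adjusted p = 0.00117, edgeR's quasi-likelihood test) and in Nmb by 1.20 ± 0.30 (adjusted p = 0.00144). These were the 2 of the 7 tested genes called higher, and none was lower, where 33.5% of the 13343 genes in that fit were called higher and 40% lower, and genes held by 1 class weigh little in such a mean. Different clusters hold most of the satellite glia of the 2 libraries.

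**Figure D5:**
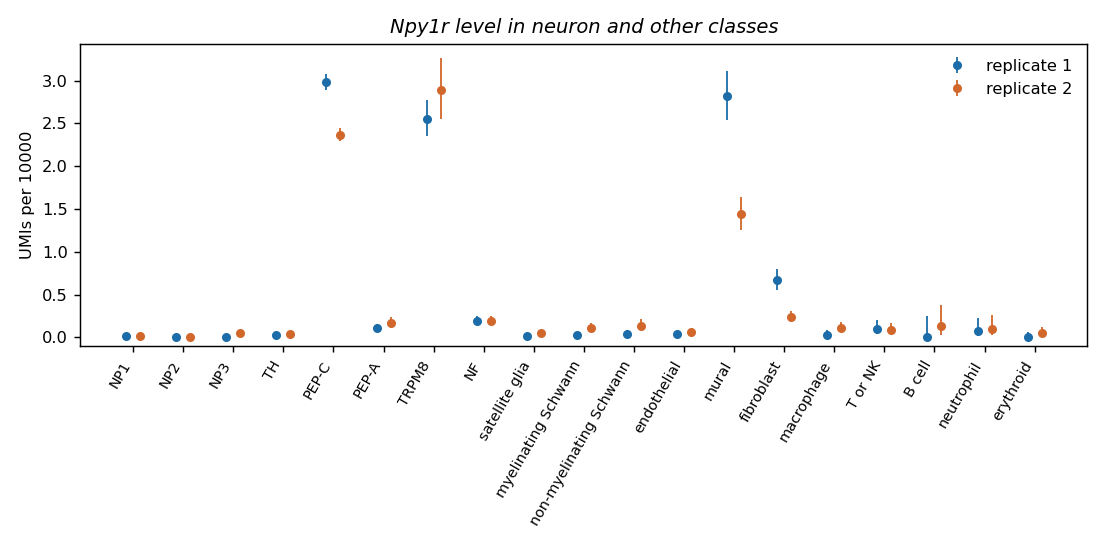
Npy1r in UMIs per 10000 (vertical axis) in the 8 neuron classes and in the other named cell classes, with 1 point a library and exact 95% Poisson intervals. PEP-C, TRPM8 and mural cells stand above the rest. Fibroblasts follow, through the smaller of their 2 clusters.

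Grp and Npy were scarce in these neurons. Grp had 22 UMIs in all neuron classes, none of them in NP3, TH or TRPM8, and a count of 0 allows up to 0.00879 and 0.0150 UMIs per 10000 in NP3 of the 2 libraries. Npy had 26 UMIs in the neuron classes out of 2468 in all cells. In replicate 1 a single barcode with 242023 UMIs held 2236 of 2336 Npy UMIs (95.7%). Of genes known from nerve injury it held 647 Gal, 238 Gap43, 128 Sprr1a, 48 Jun, 15 Sox11, 11 Atf3 and 0 Ecel1 UMIs. Whether it is an injured neuron was not tested. The barcode lies in a cluster that stayed unnamed, so the library total of Npy describes that barcode and not a class.

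Of 25 further genes of the same peptide systems and of peptidases that cut these peptides, 8 had enough counts to be tested. In TRPM8 5 of the 8 were higher and 1 lower than in the other neuron classes, where 15.9% of all genes were called higher and 14.2% lower. In PEP-C 6 were higher and none lower (18.5% and 9.53% of all genes), and in NP3 2 were higher and 2 lower (17.9% and 16.9%). PEP-A and NF each had 3 higher and 1 lower (18.5% and 10% of all genes in PEP-A, 24.9% and 18.3% in NF). NP1 and NP2 each had 1 higher and 2 lower (24.3% and 19.1% in NP1, 18% and 14.6% in NP2), and TH had none higher and 1 lower (20.2% and 16.5%). The median log2 difference of the 8 was 2.77 in TRPM8, 1.22 in PEP-C and -1.43 in NP3, beside -0.0003, 0.03 and -0.01 over all genes tested.

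Ntsr2 and Sort1, whose products bind neurotensin, were low in NP3, the class with most Nts, but not in NP3 alone. NP1, with Nts at only 0.018 and 0.037 UMIs per 10000, had 0.00867 and 0.00875 for Ntsr2 and 0.0187 and 0.0167 for Sort1. Ntsr2, a neurotensin receptor, measured 0.218 and 0.330 UMIs per 10000 in TRPM8 and 0.00586 and 0.0150 in NP3 (log2 difference of TRPM8 from the other classes 2.84 ± 0.28, SE; adjusted p = 8.28e-07, edgeR's quasi-likelihood test). Sort1, the sorting receptor sortilin that also binds neurotensin, was at 0.633 and 0.242 in TRPM8 and at 0.0264 and 0 in NP3. It was lower in NP3 than in the other classes by a log2 difference of -2.71 ± 0.42 (SE; adjusted p = 7.33e-05, same test). Sort1 was called higher in PEP-C and in NP2 but lay below the plain mean of the other classes there. The levels were 0.124 against 0.145 UMIs per 10000 for PEP-C and 0.140 against 0.143 for NP2. Grpr, the receptor of gastrin-releasing peptide, reached 0.135 and 0.121 in TRPM8 (log2 difference 3.66 ± 0.42, SE; adjusted p = 4.79e-06, same test) and 0.0440 and 0.0399 in NP3.

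Npr2, the receptor of C-type natriuretic peptide, lay between 0.187 and 0.534 UMIs per 10000 in all 8 classes. Its difference in PEP-A (log2 difference 0.44 ± 0.14, SE; adjusted p = 0.0275, edgeR's quasi-likelihood test) was lost without the library term (adjusted p = 0.116). Ece1, an endothelin-converting enzyme that also cuts other peptides, was highest of the neuron classes in NP3, at 0.489 and 0.394, with a log2 difference of 0.72 ± 0.12 (SE; adjusted p = 0.000219, same test). Satellite glia held more of it than the mean of the neuron classes (log2 difference -2.47 ± 0.09, SE; adjusted p = 9.03e-14, same test). Sort1 was also lower in neurons than in these glia (-3.28 ± 0.14; adjusted p = 4.06e-13). In that comparison 3 of the 8 genes were higher and 3 lower, where 33.5% of all genes were called higher and 40% lower.

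The genes most like each gene across the 8 classes were sought among 7745 genes by the smaller of the within-library Pearson correlations of log2(CPM + 1). These are descriptions over 8 classes that share libraries. Nppb was most like Sst (r of 0.987 and 0.985), then 9230105E05Rik (0.981 and 0.978) and Ptafr (0.990 and 0.973), and Sst was most like Nppb, Ptafr and 9230105E05Rik. Nts was nearest to Ildr2 (0.900 and 0.941), Tardbp (0.919 and 0.899) and Sst (0.899 and 0.947). For Npy2r they were Fam210b, Nrbp2 and Npepps, for Nmb Tstd1, Insm2 and Stam, and for Npy1r Sft2d2, Rit2 and Zcchc12, with the smaller r between 0.906 and 0.964. Sstr2 was nearest to Tac1 (0.951 and 0.980), which is a marker used to define PEP-C, and then to Gal and Kcnmb2.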

How the data were processed

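Single-cell 3' RNA libraries (10x Genomics v3.1) were deposited by the authors as matrices of unnormalized UMI counts, one per gene and barcode, made with Cell Ranger 5.0.1 and CASAVA 1.8 on build mm10, per the submitters' processing notes. The deposited gene and barcode lists hold values of another kind (unit other), namely gene identifiers with symbols and cell barcodes. The libraries hold 113251556 and 102347251 UMIs in 8818 and 11767 barcodes, and the median cell kept had 4991 and 4102.5 UMIs. Of all barcodes, 24 occur in both libraries, 17 of them among kept cells.

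Kept barcodes had 500 genes or more and a mitochondrial share below 20%. Scrublet's own threshold marked 1 and 0 doublets, so the highest scores were removed at 0.8% per 1000 cells (555 and 1020 cells). Cells were clustered with scanpy 1.11.5 (2000 variable genes, 30 components, 15 neighbours, Leiden resolution 1 for all cells and 1.5 for neurons) without the 9 genes, the further peptide-system genes, or mitochondrial and ribosomal genes. Each neuron was given the class with the highest mean scaled marker score where that score was at least 0.25 and led by at least 0.1. Of the neurons, 452 lay near these limits. Gate and cluster names matched in 1203 of 1295 neurons that had both.

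UMI sums over the cells of a class were taken in each library where both libraries gave 20 cells or more, and tested with edgeR 4.0.16 (quasi-likelihood, TMM, filterByExpr, terms for class and library, Benjamini-Hochberg adjustment over all genes, threshold 0.05; 16 sums, 7 residual degrees of freedom). Sums with the same replicate number come from the same library, which is why library is a term. On simulated data for NP3 against the other classes (11926 genes) the test found 99% of 2-fold and 100% of 4-fold changes, and 11 of its 210 calls were false. The simulation gave all classes the same mean profile and all genes the same spread, unlike the data. It therefore does not show how the test does for genes with low or zero counts in a class. DESeq2 1.42.0 was an alternative. Intervals (95%) and floors of 3 counts cover counting error only. Standard errors are not given where a class had no UMI, since the fitted fold then depends on the prior count.

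The genes, the lists and the markers were chosen with earlier results of these data known. Further genes of the peptide systems were named where they passed the threshold and reached 0.1 UMIs per 10000 in some neuron class in both libraries, and the 3 most similar genes were named for each gene with at least 100 UMIs in the neuron classes.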

Additional observations from a re-analysis of the deposited data

How the results depend on the processing

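Counts of called genes stayed within 1.5 times of the reported count in 80 of 81 alternatives over 11 comparisons. The exception was PEP-C against PEP-A, where leaving out the library term (no replicate block) gave 1700 genes in place of 2741. Of 711 alternatives to 76 log2 differences, 645 kept direction and side of the threshold, 56 lost the call, 5 gained one and 5 turned. Sst in NF against the other classes, called as reported (adjusted p = 0.0262, edgeR's quasi-likelihood test), ranged from -1.24 without replicate 2 to 3.86 without replicate 1, and turned to -2.43 in neurons whose gate and cluster names agree. Nmb in NP3 turned to -0.26 under the stricter margin, which leaves TRPM8 out of the fit because only 18 cells remain in replicate 2. Npy1r in PEP-A, not called as reported (0.43), turned to -1.15 with Leiden classes and to -4.05 where names agree. The cause of these turns was not tested, apart from the change in samples and classes that each alternative makes.

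Levels moved by more than the SD between libraries in 4 of 66 alternatives: Nmb in PEP-A to 4.81 where names agree and to 3.60 as a mean over cells, and Npy1r in TRPM8 to 2.39 with Leiden classes and to 2.46 as a mean over cells. All 11 shares of cells with a UMI moved when cells were thinned to 10000 in place of 2000 UMIs, each upward, as for Npy1r in PEP-C from 32.3% to 72.4% (mean of the libraries). Of 8 correlations across cells, 4 moved by more than the SD between libraries where names agree and 1 turned, that of Nppb and Npy2r in replicate 2 to -0.113. The requirement that names agree was chosen after seeing the data. NP3 against NP2 and NP2 against the others have no value under it, since 19 NP2 cells remain in replicate 2. TRPM8 has none under the stricter margin. Leaving out a library leaves 1 sum a class, so those are values with no test.

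With 2 libraries of 1 treatment group, precision is limited by the spread between them. Classes as small as NP2 and TRPM8 limit what low counts can show.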

Other observations

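Low Nppb counts outside NP3 appeared in both libraries in the PEP-C cluster led by Mymk, with 0.400 and 0.197 UMIs per 10000 from 47 and 9 UMIs. Elsewhere some low Nppb and Sst counts were uneven between libraries. In NF of replicate 2 Nppb was 0.282 and Sst 0.117 UMIs per 10000, from 27 and 17 cells with a UMI, against 0.0028 for each gene in replicate 1. An unnamed neuron cluster with 71 cells in replicate 2 and 3 in replicate 1, led by Thrsp, Sh3bgr and Retnlg, held 1.39 Nppb and 0.487 Sst UMIs per 10000 in replicate 2 and no UMI of either in replicate 1. Retnlg is a neutrophil gene, and the part of other cells or free RNA in these counts was not tested.

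Nts in mural cells measured 0.660 and 0.221 UMIs per 10000. In replicate 1 this came from 89 UMIs in 8 of 307 cells, and in replicate 2 from 36 UMIs in 15 of 419 cells. Npy in satellite glia was 0.0214 and 0.0212 UMIs per 10000, above its level in NP1, TH and PEP-C in both libraries.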
